A study of Capsicum annuum with 4 samples.

Results

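ARF4, SPL-CNR and AP2 are transcription factor genes that are known from tomato and do not belong to the MADS-box family. Their pepper counterparts were taken from the study's list of tomato fruit genes with pepper homologs, by gene identifier: CA.PGAv.1.6.scaffold631.7 for ARF4, CA.PGAv.1.6.scaffold529.23 for LeSPL-CNR (SPL-CNR below) and CA.PGAv.1.6.scaffold606.27 for AP2. These are 3 of the 35884 gene models that were counted. The copy of the list used here holds 38 pepper genes and is shorter than the set the study examined. They were chosen by name and not by their values, although with earlier results of these data known.

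The fruits came from wild type Chiltepin, the wild pepper Capsicum annuum var. glabriusculum, grown untreated in a greenhouse from seed of a wild population. The groups are CH68, red mature fruits at 68 days after anthesis (DAA), and CH20, green immature fruits at 20 DAA, with 2 RNA-Seq libraries each. Each library pooled the RNA of 6 fruits ground whole, with pericarp, placenta and seeds, and a new collection of fruits was made for the other replicate of a stage. A library is therefore an average over fruits and over tissues, and in such bulk RNA fewer cells of a type and less RNA per cell cannot be told apart. No stage between 20 and 68 DAA was measured, so a level that went up and came down within that interval is not covered.

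ARF4 is an auxin response factor, a protein that binds the promoters of auxin-regulated genes. In tomato its transcript is abundant in immature fruit and declines at the onset of ripening, and plants with less of it bear dark green fruit rich in chloroplasts and starch. SPL-CNR belongs to the SBP-box family, and an epigenetic change in its promoter causes the Colorless non-ripening phenotype of tomato, in which fruit stays pale and firm. The tomato gene is normally induced at ripening. AP2a of tomato, an APETALA2-type factor, is also induced at ripening, and there it restrains ethylene production.

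In red Chiltepin fruit, ARF4 and SPL-CNR transcripts were both far less abundant than in green fruit, and the AP2 gene model was close to silent at both stages. The ARF4 level at CH68 was 4.82% of that at CH20, and the SPL-CNR level was 0.629% of that at CH20. ARF4 therefore ran in the direction described for tomato, though the time of its fall between these stages was not measured. SPL-CNR ran against the direction described for its tomato counterpart between these stages. The tomato gene is induced at ripening, and no stage between green and red mature fruit was measured here. A rise of SPL-CNR at the onset of ripening, followed by a fall, is therefore not covered. The pairing of ARF4 and SPL-CNR with their tomato names was also not checked by sequence. The AP2 model had too few counts to be tested, and whether it is the working pepper counterpart of tomato AP2a was not tested. Both ARF4 and SPL-CNR were called as lower in red fruit, with a 4-fold change or more at a false discovery rate (FDR) below 0.01, and neither was called higher. By the same limits 26.9% of the 17160 genes tested were called, 18.7% as lower and 8.22% as higher at CH68.

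The stage labels were checked with genes known from pepper and tomato ripening. SGR1, which drives chlorophyll breakdown, had 44666 and 113841 counts at CH68, against 416 and 459 at CH20. PSY1, the entry enzyme of carotenoid synthesis, had 11727 and 34431 counts at CH68, against 428 and 395 at CH20. PG2, a pectin-degrading polygalacturonase, had 103119 and 201559 counts at CH68, against 3 and 0 at CH20. These markers separated the stages as labelled. Counts on genes added up to 12139415 and 26130664 at CH68, against 24771773 and 21370765 at CH20, so replicate 1 at CH68 was the shallowest library. Levels are given as CPM, the usual scaling of counts by library size, here the effective size after TMM normalization. For 1 gene in 2 against 2 libraries, the smallest two-sided p of an exact permutation test is 0.333. The adjusted p-values therefore come from a model of all genes (edgeR quasi-likelihood test, Benjamini-Hochberg). They judge the difference between stages against the spread between these pools of fruits, estimated with information shared across genes.

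The ARF4 gene lies on chromosome 11 of the CM334 genome, from 263402613 to 263410526 on the plus strand. Its model has 12 coding exons and 11 introns over 7914 bp. The exons add up to 2481 bp, 31.3% of the span, which leaves room for a protein of 826 residues if the last codon is a stop. In the deposited annotation every exon equals a coding segment, so lengths given here are coding lengths. Reads lying wholly in untranslated regions were therefore not counted for any gene. Reads that overlap a coding segment only in part were counted, and no correction was made for them.

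ARF4 had 39 and 73 counts at CH68, against 1762 and 1647 counts at CH20. As CPM this was 3.34 and 3.21 in red fruit, against 65.3 and 70.2 in green fruit, so the stages did not overlap and the replicates lay close together. Counting error alone allows 27.7 to 53.3 counts for the first red library and 57.2 to 91.8 for the other (exact 95% Poisson intervals). Between the red libraries the counts differed by no more than counting noise (exact binomial test, p = 0.842), and between the green ones by slightly more (p = 0.0362).

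The log2 fold change of ARF4, CH68 over CH20, was -4.37 ± 0.13 (SE, n = 2 libraries per stage), a level 20.7-fold lower in red fruit (adjusted p = 7.97e-06). The exact counting interval of the log2 ratio ran from -4.66 to -4.1. Of the genes tested, 9.43% fell more than ARF4, counting genes without red reads, whose fall depends on the small count edgeR adds (0.125). Falls of this size were thus not rare between these stages. With each library left out in turn the log2 fold change stayed between -4.45 and -4.32.

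The SPL-CNR gene lies on chromosome 2, from 141090231 to 141091704 on the plus strand. It is the shortest of the 3 models, with coding exons of 293 and 118 bp on either side of an intron of 1063 bp. The coding length of 411 bp corresponds to 136 residues, again if the last codon is a stop.

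SPL-CNR had 9 and 6 counts at CH68, against 1741 and 1754 counts at CH20. As CPM this was 0.77 and 0.264 in red fruit, against 64.6 and 74.8 in green fruit. The stages were far apart, but the red libraries rest on so few reads that their level is known only roughly: the exact 95% intervals were 4.12 to 17.1 counts and 2.2 to 13.1 counts. The red libraries differed by about as much as counting noise allows (exact binomial test, p = 0.0521), while the green ones differed by more (p = 1.41e-05).

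The log2 fold change of SPL-CNR was -7.27 ± 0.32 (SE, n = 2 libraries per stage), a level 155-fold lower in red fruit (adjusted p = 1.88e-05). The exact counting interval of the log2 ratio ran from -8.15 to -6.59. Only 4.29% of the genes tested fell more, again counting genes without red reads. The size of this change depended on which red library was used: it was -7.95 without replicate 1 at CH68 and -6.46 without replicate 2 at CH68, and the call held in both cases. When all libraries were thinned to 12139415 counts, the red libraries kept 9 and 1 counts, against at least 860 in each green library.

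**Figure D1:**
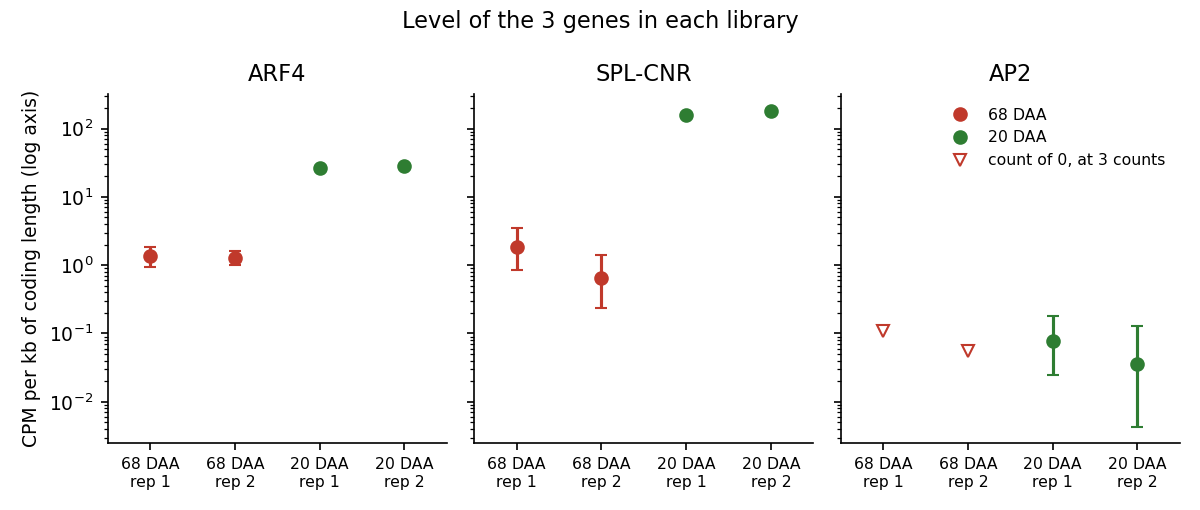
CPM per kb of coding length (log axis) of ARF4, SPL-CNR and AP2 in each library, 68 DAA in red and 20 DAA in green, with exact 95% Poisson intervals; an open triangle marks a count of 0, drawn at the level of 3 counts. ARF4 and SPL-CNR sit far lower in both red libraries, and AP2 lies near the limit of detection in all 4.

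Per kb of coding length, which allows levels of different genes to be set side by side, SPL-CNR averaged 1.26 ± 0.87 CPM per kb at CH68 and 169.5 ± 17.6 at CH20 (SD, n = 2 each). ARF4 averaged 1.32 ± 0.04 CPM per kb at CH68 and 27.3 ± 1.4 at CH20 (SD, n = 2 each). In green fruit the order on this scale was SPL-CNR above ARF4 above AP2, and the libraries of neighbouring genes in that order did not overlap. In red fruit ARF4 and SPL-CNR could not be ordered, since SPL-CNR was at 1.87 and 0.643 CPM per kb on either side of ARF4, at 1.345 and 1.295. The median tested gene stood at 15.9 CPM per kb at CH68 and 17.7 at CH20. At CH68 the level of ARF4 exceeded that of 12.7% of the genes tested and that of SPL-CNR 12.4%, whereas at CH20 it was 63.4% for ARF4 and 94.1% for SPL-CNR. On this scale SPL-CNR thus belonged to the more abundant transcripts of green fruit and ARF4 to the middle of the range. Before division by length they were close at CH20, with means of 69.7 CPM for SPL-CNR and 67.8 CPM for ARF4. Their order in green fruit therefore rests on coding lengths of 411 and 2481 bp. Reads reaching past the coding segments can weigh more on the shorter model, and this was not corrected for.

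The relation between the genes can also be read within a library, where normalization plays no part. SPL-CNR took 9 of 48 reads of the pair, 18.8% (exact 95% interval 8.95 to 32.6), in replicate 1 at CH68 and 6 of 79 reads, 7.59% (2.84 to 15.8), in replicate 2 at CH68. In the green libraries it took 49.7% (48.0 to 51.4) and 51.6% (49.9 to 53.3). Both red values lay below both green ones, and the intervals of the stages did not overlap. SPL-CNR was therefore lower in red fruit relative to ARF4 as well as relative to the library. No test of this share was run, since 2 against 2 libraries cannot reach the usual threshold in an exact permutation test. Intervals and limits given here cover counting error only.

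**Figure D2:**
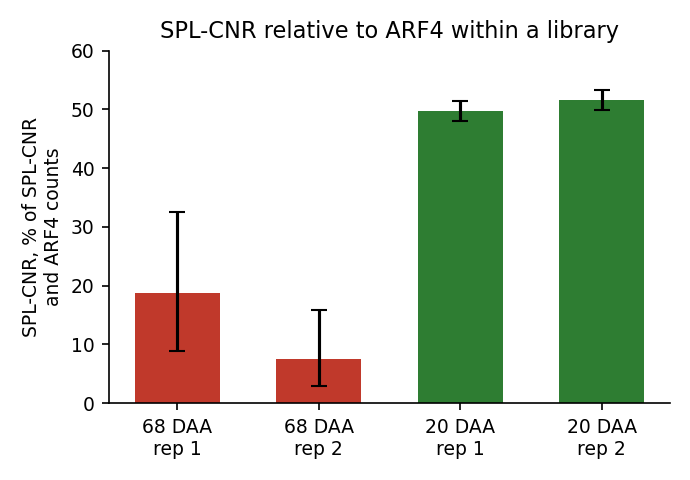
SPL-CNR counts as a percentage of SPL-CNR plus ARF4 counts in each library, with exact 95% binomial intervals, 68 DAA in red and 20 DAA in green. The shares were 18.8% and 7.59% at 68 DAA, against 49.7% and 51.6% at 20 DAA.

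The AP2 model lies on an unplaced piece of the assembly, PGAv.1.6.scaffold606, from 490970 to 494490 on the plus strand. It has 9 coding exons with 2409 bp of coding length, 68.4% of its span, room for 802 residues. The deposited annotation gives an ab initio prediction as its source, and RefSeq (assembly UCD10Xv1.1) classes the Zunla-1 locus that the list pairs with it as a pseudogene. The loci paired with ARF4 and SPL-CNR are classed there as protein coding.

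AP2 had 0 and 0 counts at CH68, against 5 and 2 counts at CH20. With 3 counts taken as the limit that a count of 0 allows, the level was at most 0.257 CPM in replicate 1 and 0.132 CPM in replicate 2 at CH68, against 0.185 and 0.0853 CPM measured at CH20. The upper end of the exact 95% Poisson interval, 3.69 counts, corresponds to 0.316 and 0.162 CPM at CH68. By either limit replicate 1 at CH68 could have reached both green values, and replicate 2 at CH68 the lower of them only. The model did not pass the filter on low values (an average log2 CPM of at least 1) and was not tested. In a fit without that filter it was not called either (edgeR, adjusted p = 0.117).

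Its 7 counts over all libraries placed AP2 among 4064 models (11.3%) with between 1 and 7 counts, while 8504 models (23.7%) had none. Of the 7518 ab initio models in the annotation, 18.3% passed the filter and 46.2% had no count, so a near-silent model was common in that class. ARF4 carries the evidence label ISGAP, and of the 16100 models with that label 79.4% passed. SPL-CNR is labelled UNIPROT, a class of 1067 models of which 41.4% passed. The copy of the list used here pairs AP2 with this model alone, and other pepper genes of the AP2 family were not analysed here. The paper reports an AP2 homolog that was expressed in green but not in red Chiltepin fruit and was called lower in red fruit. This model, with 5 and 2 counts at CH20, was not tested here and was not called in the fit without the filter. It thus did not show the change that the paper reports. The gene identifier of the paper's homolog was not looked up. The low counts here therefore describe this model only, not pepper AP2 genes in general.

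Both tested genes had stages that did not overlap in CPM, and so did 87.1% of all genes tested, so separation by itself sets neither gene apart. The plot of all genes tested shows ARF4 and SPL-CNR at average levels above the middle of the range, below the broad band of genes that changed little.

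**Figure D3:**
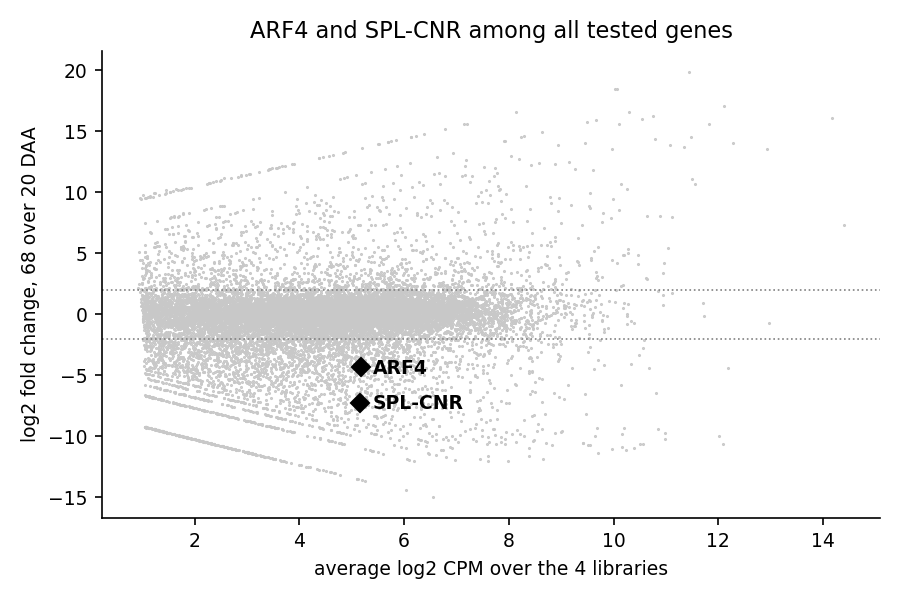
Log2 fold change, 68 DAA over 20 DAA, against average log2 CPM of the 17160 genes tested (grey points), with ARF4 and SPL-CNR as black diamonds and the 4-fold limits dotted. ARF4 at -4.37 and SPL-CNR at -7.27 lie below the lower limit, with 9.43% and 4.29% of the genes tested falling more.

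Tomato ripening is controlled by a network in which MADS-box factors such as RIN, FUL1 and TAGL1 act together with SPL-CNR, NAC factors and DNA demethylation. The same copy of the list names 10 further pepper genes for regulators, and all 10 passed the filter. Of these, 3 were called higher, 3 lower and 4 not called, where 8.22% of all genes tested were called higher and 18.7% lower, and their median log2 fold change was 1.02, against -0.04 over all genes tested. Among the 4 that are no MADS-box genes, 0 were called higher, 1 was called lower and 3 were not called, with a median of 0.61. Among the 6 MADS-box genes, 3 were called higher and 2 lower, with a median of 2.81. Whether the families differ was not tested.

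GLK2, a factor for chloroplast development in green tomato fruit, was the regulator outside the MADS-box family that was called. It had 4 and 5 counts at CH68, against 3435 and 3407 at CH20 (log2 fold change -8.99 ± 0.22, SE, adjusted p = 7.43e-06). GLK2 and FUL2 were the regulators nearest to SPL-CNR in log2 fold change.

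The other regulators outside the MADS-box family changed by less than 4-fold. SlDML2 encodes the DNA demethylase that in tomato is needed for ripening, where the SPL-CNR promoter is among its targets. It had 4008 and 8068 counts at CH68, against 5474 and 4400 at CH20, a log2 fold change of 0.84 ± 0.12 (SE, adjusted p = 0.0016). Its level was higher in both red libraries, at 342.9 and 355.2 CPM, against 203.0 and 187.6 CPM in the green libraries, a change of the opposite sign to that of SPL-CNR. NAC1, a NAC-domain factor, had a log2 fold change of 1.21 ± 0.29 (SE, adjusted p = 0.0114). ERF6, which in tomato restrains ethylene and carotenoid formation, was at 0.38 ± 0.11 (SE, adjusted p = 0.0198). NAC1 and ERF6 did not pass the FDR limit.

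Among the MADS-box genes, those for RIN and FUL1 were abundant in red fruit, opposite to ARF4 and SPL-CNR. MADS-RIN, the tomato master regulator of ripening, has a pair of pepper genes in the list. CA.PGAv.1.6.scaffold1021.30 had 24449 and 44509 counts at CH68, against 68 and 75 at CH20 (log2 fold change 9.47). CA.PGAv.1.6.scaffold1091.1 had 1056 and 1015 counts at CH68, against 79 and 89 at CH20 (4.32). If these copies are alike in sequence, the split of reads between them is uncertain. FUL1 had 12192 and 19667 counts at CH68, against 866 and 988 at CH20 (4.68). TAGL1, which acts in fleshy fruit growth and in ripening of tomato, had a log2 fold change of 1.30 ± 0.12 (SE, adjusted p = 0.000272) and stayed under 4-fold. The paper places a TAGL1 copy among genes high in mature fruit and another copy among genes lower in red Chiltepin fruit. Whether either of them is this gene was not examined.

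FUL2 and MADS-box protein 1 were lower in red fruit. FUL2, in tomato a close relative of FUL1 in the control of ripening, had 35 and 73 counts at CH68, against 2038 and 2013 at CH20 (log2 fold change -4.69 ± 0.15, SE, adjusted p = 8.41e-06). MADS-box protein 1 had 186 and 352 counts at CH68, against 3676 and 3093 at CH20 (-3.09 ± 0.11, SE, adjusted p = 1.09e-05). The regulators that fell therefore came from both sides of the MADS-box boundary.

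**Figure D4:**
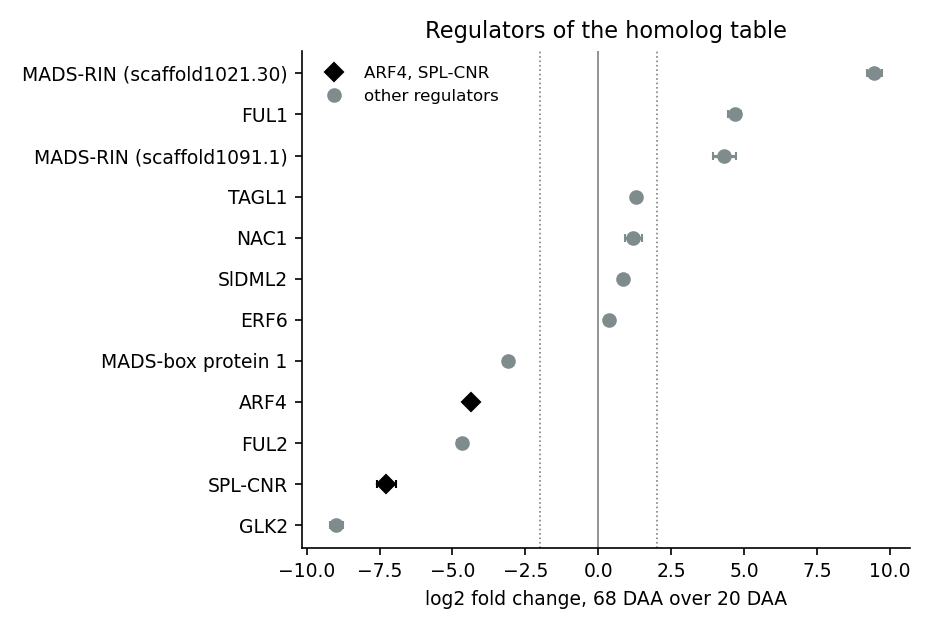
Log2 fold change, 68 DAA over 20 DAA, of ARF4 and SPL-CNR (black diamonds) and of the 10 other regulators in the list (grey circles), with standard errors and the 4-fold limits dotted. ARF4 at -4.37 lies between MADS-box protein 1 and FUL2, and SPL-CNR at -7.27 between FUL2 and GLK2.

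The ethylene signalling genes of the list act upstream of ERF factors. ETR4, an ethylene receptor, had 284 and 381 counts at CH68, against 1315 and 1225 at CH20, a log2 fold change of -1.31 ± 0.19 (SE, adjusted p = 0.00158) that stayed under 4-fold. The other genes are 3 pepper genes for TCTR1, a kinase that represses the pathway, with log2 fold changes of 0.37, 0.28 and -0.02 and adjusted p-values from 0.172 to 0.912. None of the 4 was called.

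The profiles most like those of ARF4 and SPL-CNR were sought among the 37 other genes of the list, as the root mean square difference of centred log2 CPM (prior count 2) over the 4 libraries. FUL2 came closest to ARF4 at 0.173 log2 units, followed by MADS-box protein 1 at 0.625 and an alpha-mannosidase, a glycan-trimming enzyme, at 0.706. ARF4 and FUL2 had nearly the same red counts, 39 and 73 for ARF4 and 35 and 73 for FUL2.

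For SPL-CNR the smallest difference was that of NSGT1, a glycosyltransferase of aroma compounds, at 0.551 log2 units. NSGT1 had 0 and 0 counts at CH68, against 439 and 477 at CH20, so its red level was set by the prior count and its place in the order was not measured. Among genes with reads in every library, GLK2 came closest at 0.827, followed by a gene for the lipoxygenase TomloxC, CA.PGAv.1.6.scaffold649.19, at 1.24. At CH68 GLK2 had only 4 and 5 counts and SPL-CNR 9 and 6, so the prior count weighs on their difference too. TomloxC had 30 and 55 counts at CH68, against 40972 and 40976 at CH20.

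The 3 gene models on each side of ARF4, SPL-CNR and AP2 were examined to see whether a locus moved as a whole. Of the 18 neighbours 8 were tested, of which 0 were called higher and 1 lower, against 8.22% and 18.7% of all genes tested, so the count is near the background. Beside ARF4, the nearest model downstream is CA.PGAv.1.6.scaffold631.6 on the opposite strand, 1841 bp away. It had 1836 and 3484 counts at CH68, against 1250 and 1281 at CH20, a log2 fold change of 1.62 ± 0.13 (SE, adjusted p = 0.000124), under 4-fold and of the opposite sign to ARF4. The next models, CA.PGAv.1.6.scaffold631.5 and CA.PGAv.1.6.scaffold631.4, were at 0.14 and -0.25 (adjusted p = 0.713 and 0.365). On the upstream side, 3 models had too few counts to be tested. CA.PGAv.1.6.scaffold631.9 among these had 2 and 0 counts at CH68, against 34 and 29 at CH20.

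Beside SPL-CNR, the nearest model downstream is CA.PGAv.1.6.scaffold529.24, 3836 bp away on the opposite strand. It had 113 and 217 counts at CH68, against 322 and 277 at CH20, a log2 fold change of -0.31 ± 0.15 (SE, adjusted p = 0.125), which was not called. CA.PGAv.1.6.scaffold529.25 was at 0.94 ± 0.10 (SE, adjusted p = 0.000396) and CA.PGAv.1.6.scaffold529.26 at 0.26 (adjusted p = 0.432). None of these 3 tested models was called. The 3 upstream models, from 36.1 kb away, had too few counts to be tested. Each had fewer raw counts in both red libraries than in either green one, with library depth not allowed for. In CPM the stages did not overlap for 87.1% of all genes tested, and the share among untested models was not computed. CA.PGAv.1.6.scaffold529.22 had 7 and 16 counts at CH68, against 56 and 70 at CH20. CA.PGAv.1.6.scaffold529.21 had 2 and 1 counts at CH68, against 29 and 22 at CH20. CA.PGAv.1.6.scaffold529.20 had 0 and 0 counts at CH68, against 13 and 11 at CH20.

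Beside AP2, the neighbour called lower was CA.PGAv.1.6.scaffold606.26, on the same strand 7495 bp upstream. It had 0 and 1 counts at CH68, against 247 and 215 at CH20 (adjusted p = 4.74e-05). This model had far more green reads than AP2 itself, so AP2 was near silent beside a gene that was read in green fruit. CA.PGAv.1.6.scaffold606.24 was at a log2 fold change of 1.30 ± 0.14 (SE, adjusted p = 0.000429), and the other models there were untested, with at most 3 counts in any library. No gene models overlap in the annotation, and whether reads were counted by strand is not given in the sources used here.

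**Figure D5:**
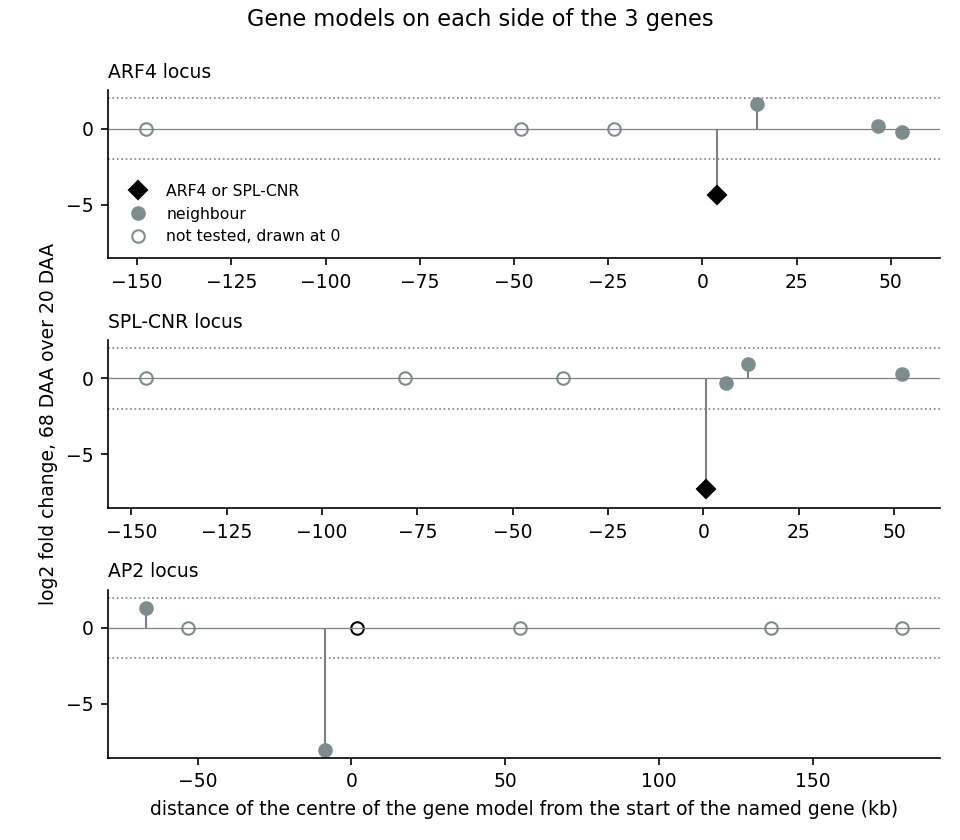
Log2 fold change, 68 DAA over 20 DAA, of the 3 gene models on each side of ARF4, SPL-CNR and AP2, against the distance of each model's centre from the start of the named gene (kb), with the 4-fold limits dotted. Open circles are models that were not tested and are drawn at 0; of the tested neighbours only 1, at the AP2 locus, lies below the lower limit.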

How the data were processed

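The authors trimmed paired reads with Trimmomatic 0.36, aligned them with HISAT2 2.1.0 to the cv. CM334 genome and counted them on genes with HTSeq 0.11.0 in union mode. They deposited raw counts per gene and library, with no normalization, and the gene models with start and end positions, another kind of value. Categories that name no gene (31.7% to 38.2% of entries) were left out. The RefSeq table is of another build, so it served for gene types only.

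Counts were analysed in R 4.3.3 with edgeR 4.0.16. After TMM normalization, genes were kept whose average log2 CPM reached 1, and the quasi-likelihood test compared CH68 with CH20, with Benjamini-Hochberg adjustment over all genes tested. Calls needed an FDR below 0.01 and a 4-fold change or more. The standard error is the size of the log2 fold change over the square root of F. Intervals, shares, profiles and figures were computed with Python 3.11.15, scipy 1.17.1 and matplotlib 3.10.9. The procedure was tested on simulated data.

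Named genes were the 3 genes, the other regulators, ethylene signalling genes and stage markers of the homolog list, the 3 models on each side, and the 3 closest profiles. The genes and lists were chosen with earlier results of these data known. The alternatives were other normalizations, filters, tests (likelihood ratio, DESeq2 1.42.0, limma-voom of limma 3.58.1, a test against 4-fold), no fold limit, thinning, a replicate block and leaving out each library. Promoter sequences and the Serrano libraries were not used here. Homolog identifiers come from the study's list, and its names were not checked by sequence.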

Additional observations from a re-analysis of the deposited data

How the results depend on the processing

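ARF4 and SPL-CNR kept their direction and their call under all 16 alternatives. For the alternative without a fold limit this was fixed in advance, since it only loosens the call on the same fit. The log2 fold change of ARF4 ranged from -4.64 to -4.24, with a largest adjusted p of 0.000154 (over edgeR, DESeq2 and limma-voom fits), and that of SPL-CNR from -7.95 to -6.46, with a largest adjusted p of 0.000271. Scaling to library totals alone moved the median log2 fold change of all genes tested to -0.31, against -0.04 with TMM, and ARF4 to -4.64 and SPL-CNR to -7.54. Without the fold limit, 9904 genes were called, 5489 lower and 4415 higher, against 4615, 3205 and 1410 with it. The summed AP2 count at CH20 was 3 after thinning, and 2 to 7 with each library left out, against 7. The replicate numbers were not shown to pair the libraries (2 pairs, correlation of same-numbered deviations 0.03). With the replicate block, 4665 genes were called, ARF4 was at -4.38 and SPL-CNR at -7.28. Depth limits SPL-CNR at CH68, with 9 and 6 counts, and AP2 everywhere.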
